A study of Mus musculus with 4 samples.

Results

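The mitosis and G2/M genes are a set of 49 genes that dividing cells express mainly in G2 and mitosis, some of them from S phase on. They were chosen by name from general knowledge of the cell cycle, with earlier results of these data known. All 49 were found among the 31053 genes counted by single-cell RNA-Seq (scRNA-Seq). The study set out to describe regulatory B cells, which are B cells that dampen immune responses, made in culture from WT mouse spleen. Its labels give 2 groups with 2 replicates each. Bregs-CpG were purified B cells grown for 3 days with CpG B ODN 1668, a DNA ligand of the receptor TLR9. Bregs-TLR had the same culture, so that both groups received CpG, and were also given LPS, a ligand of TLR4, with the activators PMA and ionomycin over the last 5 hours. What mice or cultures the replicates came from is not given in the labels.

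Each cell barcode ends in a library number from 5 to 8, and no label ties these numbers to a group. The libraries were therefore described by number, and nothing below is a comparison of Bregs-CpG with Bregs-TLR. Libraries 5 and 6 were set against libraries 7 and 8 by the rule that chose the members, not by a label. No test was made, since a pair has no known replicates of a condition, and all intervals are at 95% and cover counting error only. For scale, the cytokine gene Il10 was detected in 15.2% and 16.7% of the cells that carried the mitosis and G2/M genes in libraries 5 and 6, and in 78.7% and 77.6% in libraries 7 and 8.

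A cell that has copied its DNA enters G2, in which cyclins A and B activate the kinase Cdk1. Chromosomes are then compacted by topoisomerase II and condensin, attached through kinetochores to a spindle of microtubules, and held there by a checkpoint until the anaphase-promoting complex (APC/C) with Cdc20 destroys cyclin B. Aurora B and its partners in the chromosomal passenger complex correct attachments and go on to guide cytokinesis. B cells given CpG divide in culture, and the transcripts of these genes are made and broken down again in every round of division. Some of them, such as Ccna2 and Top2a, accumulate from S phase or early G2, whereas others, such as Ccnb1, Plk1, and Cdc20, peak close to mitosis. Here 17 members were placed as early and 17 as late, and 15 were left unplaced.

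Promoters of such genes often hold a cell cycle homology region, written TTTGAA or TTTAAA, which is bound by the MuvB-containing complexes with B-MYB and FOXM1 or, in resting cells, by DREAM. They often hold CCAAT boxes as well, which are bound by NF-Y. RefSeq promoter windows (GRCm38.p6), from 250 bases before to 50 bases after the start of a gene, were found for 42 of the 49 members. TTTGAA on either strand was present in 33 of these 42 members (78.6%), compared with 14.7% of the 10191 genes with a window and at least 10 UMIs in the cells, and 20.2% of all 27025 genes with a window. CCAAT on either strand was present in 34 of 42 (81.0%), compared with 43.3% and 41.1%. Both motifs were present in 29 of 42 members (69.0%) and in 6.08% of the genes with at least 10 UMIs. TTTAAA, which reads the same on both strands, was found in 10 of 42 (23.8%), compared with 11.04%. Each word was counted on its own, whether or not it shared letters with another, and a match is a description of the letters, not evidence of a bound site.

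The 110 bases just before the RefSeq start are shown for 6 members whose values are followed below, with these 3 words on either strand in capitals, so that the letters of these windows can be read beside the values. The lines read from 5′ to 3′ on the strand of the gene. Cdk1 (chr10:69352913-69353022, minus strand), Ccnb1 (chr13:100786487-100786596, minus strand), and Ccnb2 (chr9:70421555-70421664, minus strand) encode the mitotic kinase and its B-type cyclins. Cdc20 (chr4:118437344-118437453, minus strand) and Ube2c (chr2:164769819-164769928, plus strand) encode an activator and the ubiquitin-conjugating enzyme of the APC/C, and Top2a (chr11:99024190-99024299, minus strand) encodes topoisomerase IIα.
Cdk1: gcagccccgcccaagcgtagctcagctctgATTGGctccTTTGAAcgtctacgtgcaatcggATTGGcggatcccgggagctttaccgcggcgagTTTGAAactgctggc
Ccnb1: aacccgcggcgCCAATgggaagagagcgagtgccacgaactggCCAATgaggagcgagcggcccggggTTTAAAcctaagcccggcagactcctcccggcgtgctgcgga
Ccnb2: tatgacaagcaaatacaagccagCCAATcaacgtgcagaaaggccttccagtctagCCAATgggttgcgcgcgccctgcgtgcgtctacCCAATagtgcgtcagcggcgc
Cdc20: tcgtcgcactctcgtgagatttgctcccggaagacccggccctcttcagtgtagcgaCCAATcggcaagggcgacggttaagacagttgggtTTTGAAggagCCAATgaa
Ube2c: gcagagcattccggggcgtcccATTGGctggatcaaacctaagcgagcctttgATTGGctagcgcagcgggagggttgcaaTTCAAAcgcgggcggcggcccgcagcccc
Top2a: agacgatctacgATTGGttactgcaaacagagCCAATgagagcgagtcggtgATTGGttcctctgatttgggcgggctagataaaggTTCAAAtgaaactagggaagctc

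TTTGAA was present in 12 of 15 early members and in 12 of 15 late members with a window, so the share did not separate the lists. TTTAAA was found in 8 of 15 late members and in 1 of 15 early members. Of the 24 G1/S genes listed for comparison, most of which act in DNA replication, 19 had a window, and 2 of these (10.5%) held TTTGAA, 4 (21.1%) TTTAAA, and 11 (57.9%) CCAAT. Of the 34 other G2/M genes, 26 had a window, with TTTGAA in 11 (42.3%), TTTAAA in 2 (7.69%), CCAAT in 18 (69.2%), and both TTTGAA and CCAAT in 9 (34.6%).

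After cells with fewer than 1000 genes or with a mitochondrial share of 10% or more were left out, 18534 cells remained, in which the members had 203793 UMIs. Libraries 5, 6, 7, and 8 kept 4196, 4714, 5621, and 4003 cells, and the median depth ran from 8752 to 10355 UMIs per cell. The pair 7+8 was the deeper one, and its median mitochondrial share (4.61% and 4.65%) was lower than that of the pair 5+6 (7.22% and 7.18%). Between the libraries, 29 barcode sequences occurred more than once. Carrying cells expressed B cell markers, with 2360, 2477, 1098, and 1022 CPM of the B cell receptor subunit gene Cd79a in libraries 5 to 8. T cell markers summed to at most 1.22 CPM in these cells, with Cd3e, Cd4, and Cd8a at 0, and myeloid markers summed to at most 2.95 CPM, with Lyz2, S100a8, and S100a9 at 0. NK markers were at 0. Of the globin genes, Hba-a1 and Hba-a2 were at 0, and Hbb-bt had 6.24, 8.52, 153, and 262 CPM. Plasma cell markers summed to between 269 and 1390 CPM, most of it Mzb1 (1124, 1189, 204, and 148 CPM), which B cells also express. Cd79a, Hbb-bt, and Mzb1 thus differed between the pairs as well, and their part in the results below was not tested.

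Summed over all cells, the 49 members reached 1163 CPM (UMIs of the genes over all UMIs, scaled to 1e+06, with an interval of 1153 to 1173) in library 5 and 1268 CPM (1258 to 1278) in library 6. Their level was 764 CPM (757 to 771) in library 7 and 822 CPM (814 to 831) in library 8. Both values of the pair 7+8 were below both of the pair 5+6, and the log2 ratio of 7+8 over 5+6 was -0.63 (-0.64 to -0.62). With mitochondrial, ribosomal protein, and immunoglobulin genes left out of the total, all log2 ratios over all cells moved by -0.16, and this ratio became -0.79.

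The share of cells that carried the genes depended on how many members were asked for. A cell was called carrying when at least 10 of the 49 members had a UMI. This was so in 341 of 4196 cells of library 5 (8.13%, Clopper-Pearson interval 7.32% to 8.99%) and in 431 of 4714 cells of library 6 (9.14%, 8.34% to 10.0%). It was also so in 483 of 5621 cells of library 7 (8.59%, 7.87% to 9.36%) and in 380 of 4003 cells of library 8 (9.49%, 8.602% to 10.44%). The 4 shares overlapped between the pairs, and 7+8 minus 5+6 was 0.30 percentage points (-0.51 to 1.12). After each cell was thinned to 5000 UMIs, which left out 272 cells of 5+6 and 390 of 7+8, the shares were 6.12%, 6.83%, 5.25%, and 6.01% in libraries 5 to 8. The difference was then -0.93 points (-1.63 to -0.23), so its sign changed with thinning. It also changed with the choice of cells, at -0.87 points (-1.60 to -0.14) with at least 15 members and at -2.07 points (-2.63 to -1.50) with at least 20 of 34 other G2/M genes, and it was 2.66 points (1.53 to 3.78) with at least 5 members.

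Carrying cells of the pairs differed in how much of the set they held. The median carrying cell had 34 and 33 members detected in libraries 5 and 6, compared with 21 and 24 in libraries 7 and 8. Cells with 30 or more members made up 58.4% and 59.6% of the carrying cells in libraries 5 and 6 and 30.6% and 34.2% in libraries 7 and 8. The median number of member UMIs per carrying cell was 119, 121, 56, and 61 in libraries 5 to 8, and in the remaining cells, hereafter other cells, it was 2 in every library. Total depth ran the same way but by less, since carrying cells had medians of 17635, 18380, 16160, and 15783 UMIs. At 5000 UMIs per cell, the median was 20 members per carrying cell in 5+6 and 16 in 7+8. Other cells were shallower, with medians of 8455, 8498, 10060, and 9779 UMIs.

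**Figure D1:**
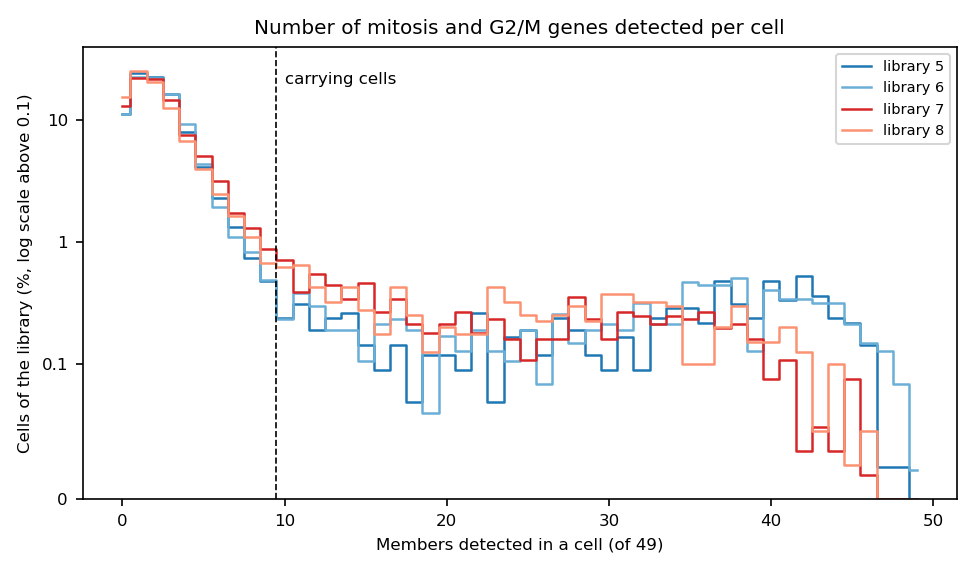
Distribution of the number of mitosis and G2/M genes detected per cell (x axis, of 49) as the percentage of cells of each library (y axis, logarithmic above 0.1), 1 line per library. The dashed line marks the limit of 10 members. Summed over 10 to 19 members, libraries 7 and 8 hold more cells (367 against 175). Summed over 30 or more, libraries 5 and 6 hold more (456 against 278). The lines do not keep this order at every single number of members.

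Near the limit, 52 cells of 5+6 and 113 of 7+8 had 10 or 11 members, and 113 and 194 cells had 8 or 9. The limit of 10 thus cuts through a range of cells, and more of them lie near it in 7+8. Carrying cells held 79.6%, 81.6%, 68.6%, and 74.4% of all member UMIs in libraries 5 to 8. Each member was at least 2-fold higher in carrying than in other cells of every library when the gene itself was left out of the choice of cells, compared with 2.96% of all genes. The smallest of these log2 ratios was 1.23. No doublet caller was run. Leaving out the 5% of cells with the most UMIs per library changed the log2 ratio of the summed level to -0.56.

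In carrying cells, the summed level was 5631 and 5830 CPM in libraries 5 and 6 and 3859 and 4037 CPM in libraries 7 and 8. Over all cells, 12 of the 49 members were at least 2-fold higher in the pair 5+6 with library values that did not overlap, compared with 18.7% of all genes, and none was in the pair 7+8 (15.9% of all genes). Without the limit of 2-fold, both libraries 7 and 8 were below both 5 and 6 for 42 members over all cells (40.2% of all genes) and above them for 3, which were Cdk1, Smc2, and Ncaph (45.3% of all genes). At 1.5-fold, 25 members were higher in 5+6 (26.7% of all genes) and 1 in 7+8 (27.4%). In carrying cells, again with each gene left out of the choice of cells, 8 of 49 were at least 2-fold higher in 5+6 (15.4% of all genes) and none in 7+8 (10.5%). By library order alone, both libraries 7 and 8 were lower for 44 members (38.3% of all genes) and higher for 1 member (39.9%). The median log2 ratio of the members in carrying cells was -0.50, whereas that of all genes was 0.02. The members thus had mostly moderate differences, nearly all in 1 direction.

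**Figure D2:**
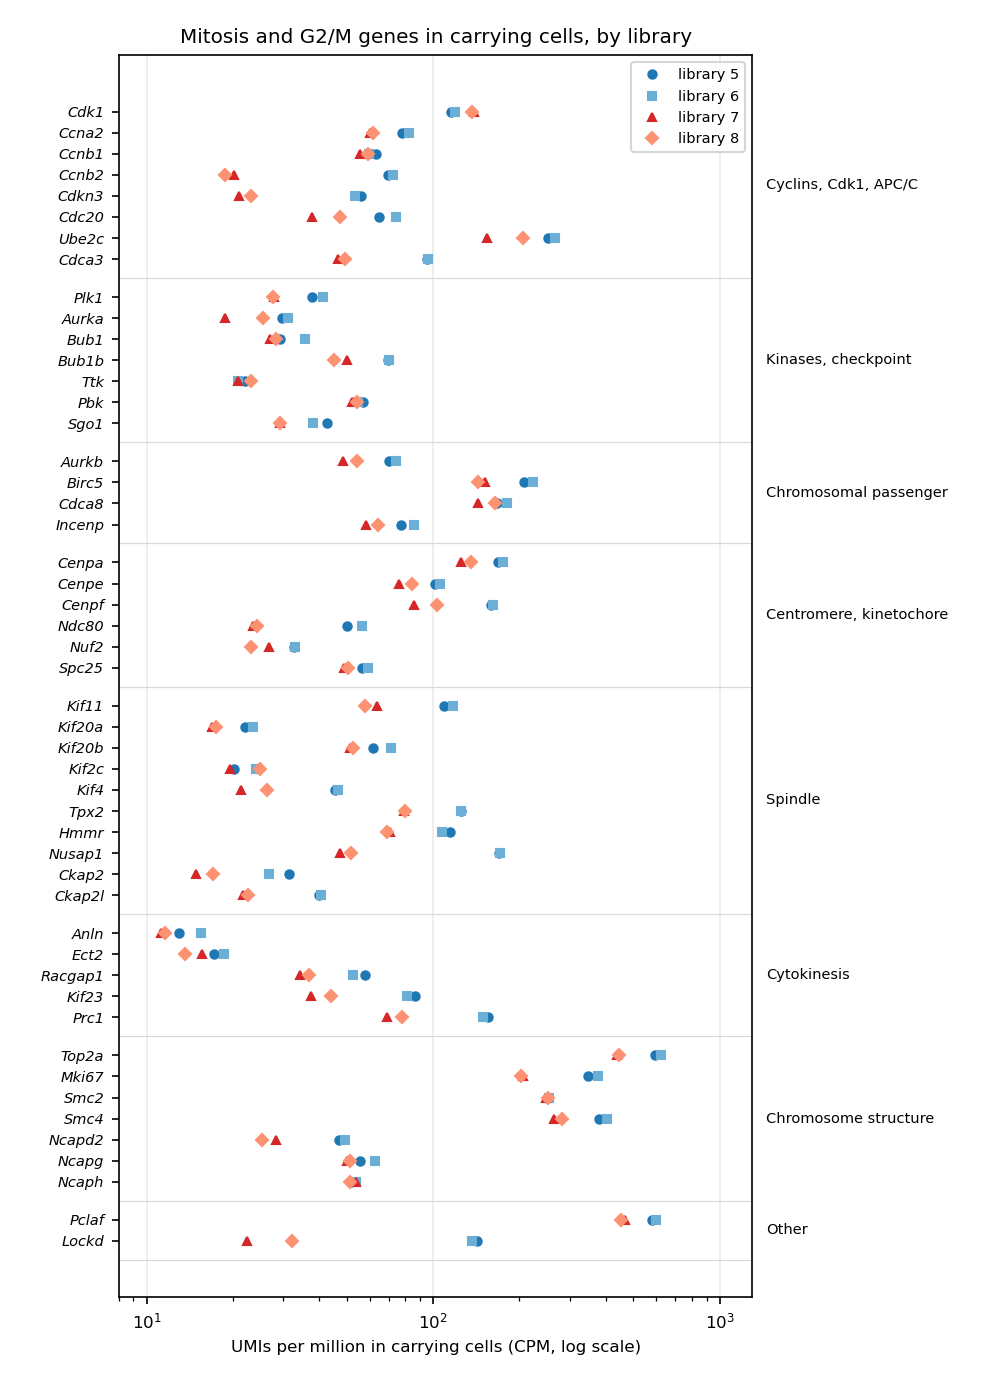
Level of each member in carrying cells (x axis, CPM on a log scale, each gene left out of the choice of its cells) in libraries 5 to 8, 1 point per library, with genes grouped by role. The points of libraries 7 and 8 lie to the left of those of libraries 5 and 6 for 44 of 49 members, and to the right for Cdk1.

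The cyclins and Cdk1 did not differ between the pairs in the same way. Cdk1, the kinase that drives entry into mitosis, had 115, 119, 139, and 137 CPM in carrying cells of libraries 5 to 8. It was the only member for which both libraries 7 and 8 were above 5 and 6, with a log2 ratio of 0.23 (0.14 to 0.32), or 0.14 with the narrower total. Over all cells its log2 ratio was 0.13, and -0.03 with the narrower total. Ccna2, encoding cyclin A2, had 77.9, 82.1, 60.1, and 61.7 CPM, with a log2 ratio of -0.40. Cyclin B1 and cyclin B2, which both activate Cdk1 at mitosis, parted from each other.

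Ccnb1 had 63.4, 59.9, 55.7, and 59.4 CPM in carrying cells of libraries 5 to 8, and the log2 ratio of -0.10 (-0.23 to 0.03) had an interval that held 0. With the stricter choices of cells given below, the ratio of Ccnb1 was above 0. Ccnb2 had 69.5 and 72.7 CPM in libraries 5 and 6 but 20.1 and 18.8 CPM in libraries 7 and 8, which is a log2 ratio of -1.87 (-2.05 to -1.68). The library values of the pairs did not overlap for either gene, but for Ccnb1 the counting intervals of libraries 6 and 8 held each other's values. The fold of Ccnb2 was 3.64, compared with 1.07 for Ccnb1. Cells with a Ccnb2 UMI made up 55.7%, 57.4%, 22.8%, and 20.8% of carrying cells in libraries 5 to 8, compared with 0.726%, 0.864%, 0.467%, and 0.304% of other cells. Cells with Ccnb1 and no Ccnb2 were 14.4% and 13.2% of carrying cells in libraries 5 and 6 and 26.9% and 31.3% in libraries 7 and 8. The reverse combination, Ccnb2 with no Ccnb1, was found in 17.0% and 21.8% and in 6.42% and 4.74%. At 5000 UMIs per cell, 31.6% of carrying cells of 5+6 and 31.5% of 7+8 had a Ccnb1 UMI, whereas 39.6% and 12.5% had a Ccnb2 UMI. Both promoters hold several CCAAT boxes in the stretches above. Ccnb1 holds TTTAAA at position -42 from the start, and Ccnb2 holds TTTGAA at -167 and 5, outside the stretch shown. Both genes thus have such a word in their windows, and its position depends on the RefSeq start used. Whether these words have a part in the values was not tested.

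The other members of the cyclin group were lower in 7+8. Cdkn3, a phosphatase that acts on Cdk proteins, had 56.0, 53.4, 21.0, and 23.1 CPM in carrying cells of libraries 5 to 8 (log2 ratio -1.31). Cdca3, which helps to degrade the Cdk1 inhibitor Wee1, had 95.4, 95.9, 46.5, and 49.1 CPM (-1.01). For the APC/C, Cdc20 had 64.9, 73.9, 37.8, and 47.2 CPM (-0.73), and Ube2c had 252, 266, 155, and 206 CPM (-0.55). All 4 genes were lower in both libraries 7 and 8, as were 38.3% of all genes in carrying cells.

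The 7 kinase and checkpoint genes had smaller differences, with log2 ratios in carrying cells from -0.54 to 0.03, and none was past 2-fold. Plk1, a kinase of mitotic entry and spindle assembly, had 37.7, 41.3, 27.9, and 27.6 CPM in libraries 5 to 8. Aurka, encoding the Aurora kinase of the spindle poles, had 29.7, 31.2, 18.7, and 25.5 CPM, and the checkpoint gene Bub1b had 69.3, 70.04, 50.2, and 45.1 CPM. Ttk, the kinase at the head of the spindle checkpoint, had 22.1, 20.9, 20.8, and 23.2 CPM, so its libraries overlapped. The ratio was -0.07 (-0.21 to 0.07) for the kinase gene Pbk, -0.25 for the checkpoint kinase gene Bub1, and -0.46 for Sgo1, the protector of centromere cohesion.

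Of the chromosomal passenger genes, Birc5 (survivin) had 208, 223, 152, and 143 CPM in carrying cells of libraries 5 to 8, with a log2 ratio of -0.55. The ratio was -0.50 for the kinase gene Aurkb, -0.43 for Incenp, which anchors the kinase, and -0.19 for the borealin gene Cdca8. The 4 genes code for 1 complex, and all 4 were lower in both libraries 7 and 8, as were 38.3% of all genes. Aurkb had 55.1% of its UMIs in carrying cells over all libraries, a smaller part than Birc5, whose share ran from 90.6% to 98.0% among the libraries.

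At the kinetochore, the microtubule-binding Ndc80 complex includes the products of Ndc80, Nuf2, and Spc25. Ndc80 had 50.04, 56.4, 23.4, and 24.4 CPM in carrying cells of libraries 5 to 8 (log2 ratio -1.17, -1.35 to -0.99). Nuf2 had 32.6, 33.0, 26.8, and 23.2 CPM (-0.38), and Spc25 had 56.6, 59.4, 48.9, and 50.5 CPM (-0.23). The interval of Ndc80 lay below those of its partners, so the genes of this complex did not differ by the same amount. Cenpf, a large protein of the outer kinetochore, had 159, 162, 85.6, and 103 CPM (-0.78). The ratio was -0.38 for the kinetochore motor gene Cenpe and -0.41 for Cenpa, the centromeric histone H3.

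Of the 10 spindle genes, all had log2 ratios below 0 in carrying cells, compared with 5727 of 11740 among all genes tested. Nusap1 stood lowest of the 10. Nusap1, which bundles spindle microtubules near chromosomes, had 170 and 171 CPM in libraries 5 and 6 and 47.2 and 51.7 CPM in libraries 7 and 8 (log2 ratio -1.79, -1.91 to -1.68). Its window held none of the 3 promoter words. Kif11, the motor that separates the spindle poles, had 109, 117, 63.6, and 57.9 CPM (-0.89), and the chromosome-bound motor gene Kif4 had 45.6, 46.7, 21.3, and 26.3 CPM (-0.97). The ratio was -0.87 for Ckap2l and -0.86 for Ckap2, which act on spindle microtubules, and -0.66 for both Tpx2, an activator of Aurora A, and Hmmr. It was -0.42 for Kif20a and -0.37 for Kif20b, motors of the central spindle. Kif2c, which takes microtubules apart at centromeres, had 20.2, 24.1, 19.5, and 24.9 CPM, and its libraries overlapped (-0.03, -0.25 to 0.19).

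The cytokinesis genes Prc1 and Kif23, whose products bundle and cross-link the central spindle, were past 2-fold. Prc1 had 155, 149, 69.0, and 78.1 CPM in carrying cells of libraries 5 to 8 (log2 ratio -1.05), and Kif23 had 86.4, 80.9, 37.6, and 43.9 CPM (-1.04). Racgap1, which binds Kif23 in the centralspindlin complex, had a ratio of -0.62. The ratio was -0.34 for the contractile ring gene Anln and -0.29 for Ect2, the exchange factor that activates RhoA there.

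Chromosome structure genes were split within condensin. Smc2, a core subunit, had 249, 253, 248, and 252 CPM in carrying cells of libraries 5 to 8, and the libraries of the pairs overlapped (log2 ratio -0.01, -0.08 to 0.05). Its partner Smc4 had 380, 404, 263, and 282 CPM (-0.53, -0.59 to -0.48). Among the condensin I subunits, Ncaph had 51.8, 53.6, 53.7, and 51.3 CPM (-0.01), Ncapg had a ratio of -0.23, and Ncapd2 had 47.0, 49.1, 28.4, and 25.3 CPM (-0.83). Top2a had 594, 623, 439, and 444 CPM (-0.47), and the proliferation marker gene Mki67 had 346, 378, 206, and 202 CPM (-0.83). Much of the RNA of Smc2 and Ncaph lay outside carrying cells, which held 43.4% to 69.1% of the UMIs of Smc2 and 30.5% to 67.6% of those of Ncaph, by library.

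Pclaf, encoding a factor bound to the replication clamp PCNA, had 578, 601, 468, and 454 CPM in carrying cells of libraries 5 to 8 (log2 ratio -0.36). Lockd, a noncoding RNA, had the lowest ratio of the 49 members. Its level was 143 and 136 CPM in libraries 5 and 6 and 22.3 and 32.1 CPM in libraries 7 and 8 (-2.38, -2.54 to -2.23). Lockd lies on chromosome 6 (134929092 to 134956798, plus strand, GRCm38), and the Cdk inhibitor gene Cdkn1b (134920401 to 134925513) ends 3578 bases before it on the same strand. Cdkn1b had 79.0, 79.8, 33.6, and 35.2 CPM in carrying cells (-1.21) and a ratio of -1.68 in other cells, in which the ratio of Lockd was -3.39. Whether reads past the end of Cdkn1b took part in the count of Lockd was not tested. No member overlapped another counted gene on its strand.

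**Figure D3:**
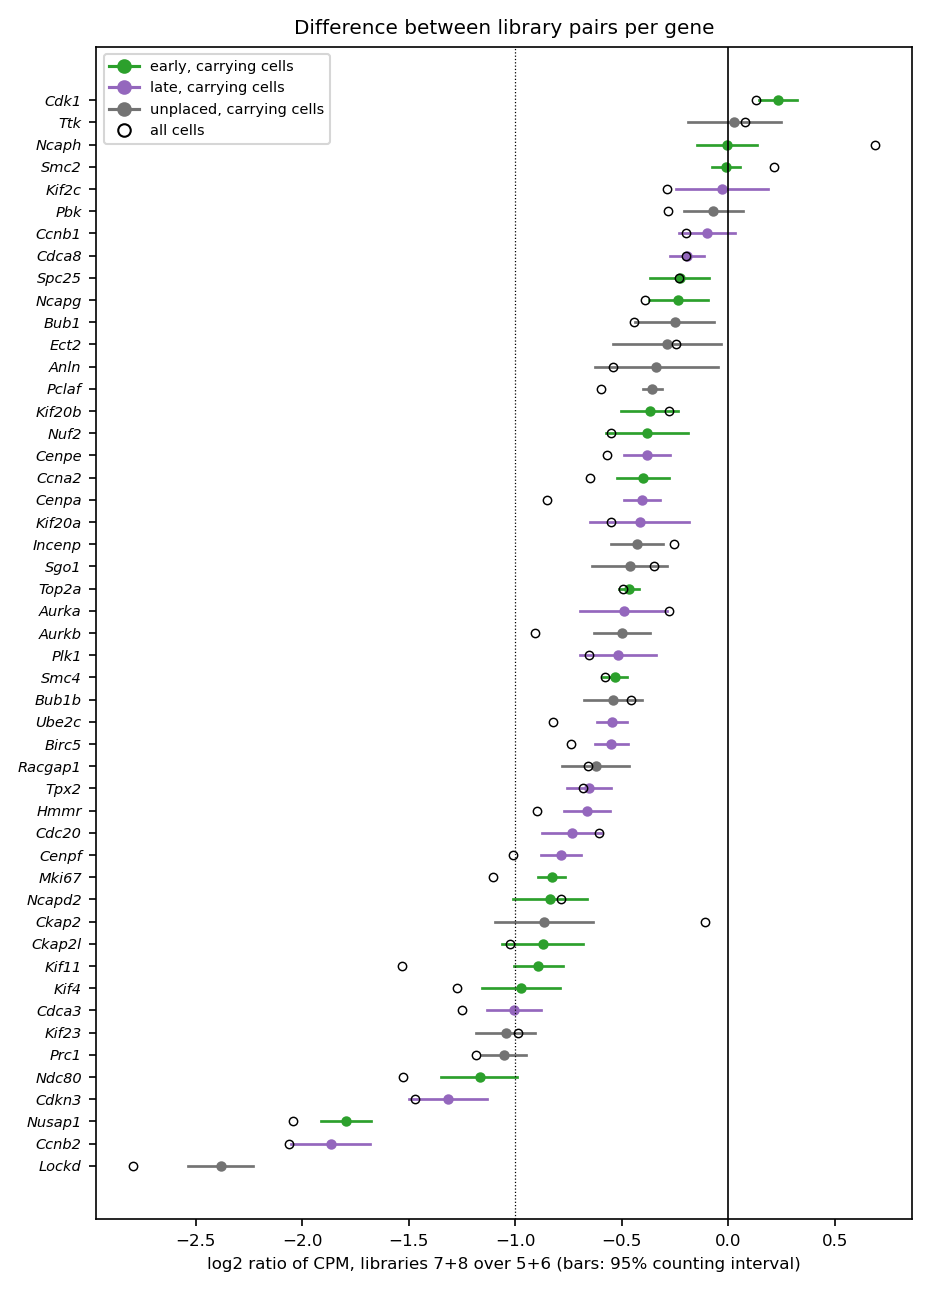
log2 ratio of CPM of libraries 7+8 over 5+6 (x axis) for each member, ordered by the ratio in carrying cells (filled points with 95% counting intervals, colored by early, late, or unplaced) with the ratio over all cells as open circles. Lockd (-2.38) and Ccnb2 (-1.87) lie at the low end and Cdk1 (0.23) at the high end, with early and late genes mixed along the order.

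Early and late members were then compared as lists. In carrying cells, the median log2 ratio of 7+8 over 5+6 was -0.47 for the 17 early members, -0.55 for the 17 late members, and -0.46 for the 15 unplaced ones. The late list took 41.6%, 41.3%, 39.4%, and 41.7% of early and late UMIs in carrying cells of libraries 5 to 8, and library 8 lay above both 5 and 6. The log2 ratio of late over early members was lower in 7+8 by a difference of -0.06 (-0.09 to -0.03) in carrying cells, and without library 7 this difference was 0.01. Over all cells, the late share was 37.8%, 38.1%, 33.2%, and 36.2%, with a difference of -0.22 (-0.25 to -0.19), and without library 7 it was -0.11. In carrying cells the direction also turned with the choice of cells, since the difference was 0.0038 (-0.03 to 0.04) with at least 15 members and 0.17 (0.13 to 0.21) with cells chosen by the other G2/M genes.

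Before thinning, single cells showed a difference at the late end. The late share of a carrying cell had medians of 34.4%, 32.9%, 29.7%, and 32.0% in libraries 5 to 8. Late members held most of these UMIs in 78 of 341 cells of library 5 (22.9%, 18.5% to 27.7%) and in 102 of 431 cells of library 6 (23.7%, 19.7% to 28.0%). This was so in 61 of 483 cells of library 7 (12.6%, 9.80% to 15.9%) and in 61 of 380 cells of library 8 (16.1%, 12.5% to 20.1%). Cells with a late share above 70% made up 7.04%, 9.74%, 2.28%, and 2.89%. At 5000 UMIs per cell, the share of cells with mostly late UMIs was 27.9%, 28.98%, 18.7%, and 26.0%. Libraries 5 and 8 then lay closer together than before thinning, and mainly library 7 stood apart. These shares came from 247, 314, 283, and 231 carrying cells, and no intervals were computed for them.

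**Figure D4:**
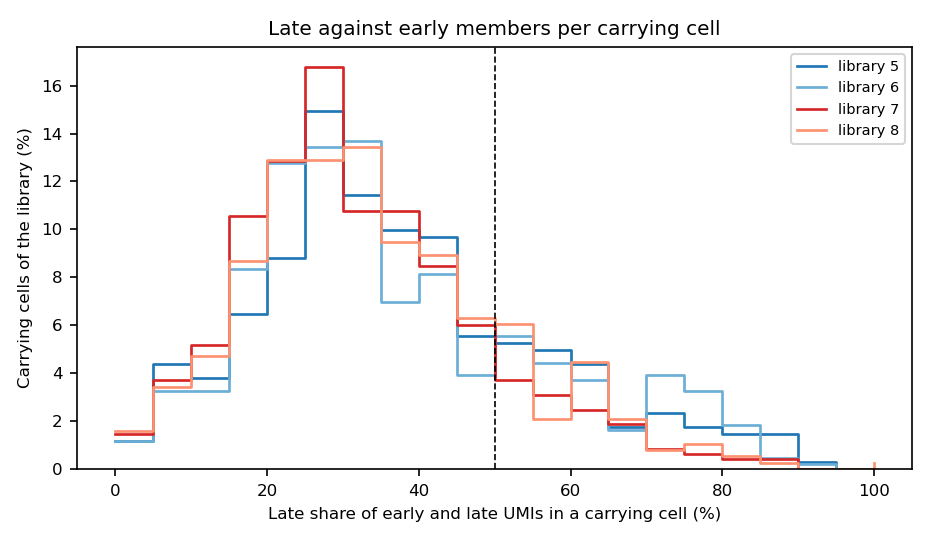
Distribution over carrying cells of the late members' share of early and late UMIs (x axis, in bins of 5 percentage points) as the percentage of carrying cells of each library (y axis), 1 line per library. To the right of the dashed line at 50% lie 22.9% and 23.7% of the carrying cells of libraries 5 and 6 and 12.6% and 16.1% of those of libraries 7 and 8. Cells are shown before thinning.

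The size of the pair difference was not the same in these cells as in the rest. In the 180 cells of 5+6 and 122 of 7+8 with mostly late UMIs, the median log2 ratio of the 49 members was -0.11, with 31 below 0 and 3 at least 2-fold higher in 5+6, compared with 16.6% of all genes in these cells. These 3 were Lockd (-2.21), Ccnb2 (-1.50, -1.78 to -1.24), and Nusap1 (-1.04, -1.27 to -0.81). In the remaining carrying cells, the median was -0.58, with 47 below 0 and 10 at least 2-fold higher in 5+6, compared with 14.9% of all genes. Ube2c had a ratio of 0.01 (-0.08 to 0.11) in the former and -0.79 in the latter, Cdc20 had -0.16 and -0.98, and Plk1 had 0.11 and -0.73. Cdk1 stood at 0.53 (0.35 to 0.71) among the cells with mostly late UMIs and at 0.19 in the remaining carrying cells. Ccnb1 stood at 0.27 (0.09 to 0.45) and at -0.07 in the same order. Each gene was again left out of the choice of carrying cells, but the members themselves sorted those cells by late share. The difference between the sorted groups was not tested, and how many of all genes lay below 0 in them was not counted.

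A stricter choice of cells gave smaller ratios for most members. A choice by members uses the genes whose ratios it then gives, and it drops cells with few members. Such cells were more common in 7+8, with 367 cells at 10 to 19 members against 175 in 5+6. How far the choice alone made the ratios smaller was not tested. With at least 20 members detected, which 597 cells of 5+6 and 496 of 7+8 had, the median log2 ratio was -0.31, 40 members were below 0, and 3 were at least 2-fold higher in 5+6, compared with 15.6% of all genes (Lockd at -1.98, Nusap1 at -1.42, and Ccnb2 at -1.39). When cells were chosen by at least 20 of 34 other G2/M genes that are not members, a choice added after the data were seen, 449 cells of 5+6 and 286 of 7+8 remained. The median was then -0.36 with 43 members below 0, and Ccnb2 was at -1.17, Nusap1 at -1.39, Lockd at -2.11, and Ndc80 at -1.06. Cdk1 stood at 0.45 and 0.39 by these choices, and Ccnb1 at 0.15 (0.01 to 0.29) and 0.25 (0.09 to 0.40). Of the 34 genes themselves, 25 had log2 ratios below 0 in carrying cells, with a median of -0.31. Among all genes tested in carrying cells, 5727 of 11740 were below 0. That count over all genes was not made for the stricter choices.

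Other cells had few member UMIs, at 284, 284, 278, and 248 CPM for the sum of the set in libraries 5 to 8. The members did not share a direction there. Relative to 5+6, 31 of 49 were higher in 7+8 and 18 lower, with a median log2 ratio of 0.34, and when cells were called other by all 49 genes the counts were 28 and 21. With the narrower total as well, they were 25 and 24. The same counts over all genes were not made for other cells. Among the genes with ratios above 0, Cdk1 had 1.28, 1.65, 5.12, and 4.63 CPM in other cells (1.74), and Ttk had 0.347, 0.330, 1.23, and 1.37 CPM (1.93). Ncaph had 5.96, 5.42, 18.4, and 15.2 CPM (1.59), while over all cells it had 13.4, 13.8, 23.0, and 20.5 CPM (0.69). Among those below 0, Kif11 had 19.03, 18.6, 3.89, and 3.79 CPM in other cells (-2.29), and Ndc80 had 5.20, 5.84, 1.54, and 1.62 CPM (-1.81). Free RNA adds UMIs to any cell, and how far it did so here was not tested.

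Most of the G1/S genes, which come before the mitotic ones in the cycle, lay the other way. In carrying cells, 19 of the 24 G1/S genes had log2 ratios above 0, compared with 5924 of 11740 among all genes tested. Their median was 0.35, compared with -0.50 for the members. At least 2-fold higher in 7+8 was 1 of the 24, compared with 10.5% of all genes. The 5 genes below 0 included Tyms (-0.79, -0.87 to -0.71), Rrm2 (-0.38, -0.45 to -0.31), and Dut (-0.13, -0.19 to -0.08). The helicase gene Mcm5 had 85.5, 89.8, 143, and 127 CPM in carrying cells of libraries 5 to 8, and in other cells 9.85, 9.75, 47.4, and 45.6 CPM. Cells with at least 10 of the 24 G1/S genes made up 80.6%, 80.05%, 88.4%, and 87.6% of carrying cells and 3.27%, 2.50%, 23.2%, and 22.1% of other cells. At 5000 UMIs per cell, these shares were 41.7%, 41.4%, 47.3%, and 41.1% of carrying cells in libraries 5 to 8. Library 8 then lay below both 5 and 6, so the pairs no longer stood apart in carrying cells. In other cells the shares were 2.16%, 2.19%, 10.3%, and 9.05%, and the pairs stayed apart.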

How the data were processed

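The deposited matrix holds UMI counts that the authors made with Cell Ranger (version 3.1.0, with bcl2fastq and mm10, per the submitters' processing notes) from 10x Genomics 3′ libraries and combined and normalized across libraries with its aggr step, whose depth setting is not given in the sources used here. Where that step equalizes read depth between libraries, it lowers the counts of the deeper ones, so that the depths given here are those after the step. The imputation that the study ran later is not in these counts.

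There are 35989 columns of counts but 19920 barcodes. The last 19920 columns were taken as the barcodes in order, and the leading 16069 columns stayed out. As a check, the largest step of Il10 along these cells fell after cell 9766, where library 7 starts, and that of Ly6d after cell 9767. Cells with under 1000 genes (559) or with 10% or more mitochondrial UMIs (1110) were left out, and library totals of the kept cells ran from 44842982 to 63638158 UMIs. The limits are those of the study, which applied them after imputation.

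UMIs were summed per library and divided by all UMIs of the same cells (CPM). A difference was counted as past the limit at 2-fold or more with the values of one pair all above those of the other, among genes with at least 10 UMIs. Intervals of log2 ratios were exact and conditional on the summed UMIs, those of CPM exact Poisson, those of shares Clopper-Pearson, and normal for differences of shares and of late over early members. Thinning drew 5000 UMIs per cell without replacement, once, with a fixed seed. Python (version 3.11.15), NumPy (version 2.4.6), SciPy (version 1.17.1), and pandas (version 2.3.3) were used, and the scripts were tested on simulated data. Gene positions came from GENCODE on GRCm38, which is not the annotation the authors counted on.

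The members, the early, late, role, and comparison lists, and the alternatives were chosen with earlier results of these data known. Named genes were all 49 members, genes of the lists, and the 10 non-members outside the lists with the highest ratio of carrying over other cells in their lowest library, among those with at least 100 UMIs in carrying cells of each library. No edgeR or other count model was run, since no column is tied to a sample. Doublets were neither called nor removed. Alternatives changed the limits on cells, the total, the depth, the number of members that calls a cell, the weight of genes, the 2-fold limit, and the libraries used.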

Additional observations from a re-analysis of the deposited data

Results flagged for a closer look

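For 7 genes of the comparison lists, carrying cells stood on one side of other cells in both libraries 5 and 6 and on the opposite side in both libraries 7 and 8. The difference between the pairs was not tested. The log2 ratio of carrying over other cells was 0.40, 0.37, -0.28, and -0.29 in libraries 5 to 8 for Ccnd2, the cyclin of growth-factor-driven G1. It was 0.20, 0.17, -0.27, and -0.23 for the cytokine gene Il10 and 0.34, 0.32, -0.015, and -0.0019 for Trp53, encoding p53, whose values in libraries 7 and 8 were close to 0. The opposite order held for the growth arrest genes Gadd45a (-0.32, -0.31, 0.23, and 0.34) and Gadd45g (-0.79, -0.22, 0.12, and 0.37). It also held for the antiproliferative gene Btg2 (-0.79, -0.63, 0.31, and 0.092) and for Rbl2, encoding the pocket protein p130 of the DREAM complex (-0.27, -0.21, 0.11, and 0.56).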

How the results depend on the processing

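Of 61 alternative values, 34 stayed within the main interval or, for counts, within 1.5 times the main count. The sign was opposite to the main value in 8, which were 3 of late over early members in carrying cells and 5 of the share of carrying cells, whose main interval held 0. The log2 ratio of the summed level (main -0.63) was -0.60 without limits on cells and also with 500 genes and 20% mitochondrial UMIs as limits, -0.79 with the narrower total, and -0.56 without the 5% of cells with the most UMIs. Leaving out 1 library gave -0.69 to -0.56. The difference in the share of carrying cells (main 0.30 points) was 2.66 with at least 5 members, -0.87 with at least 15, -0.93 after thinning, and -2.07 with cells chosen by 20 of 34 other G2/M genes, and -0.18 to 0.84 without 1 library. The late over early difference in all cells (main -0.22) was -0.10 as a median over genes, -0.27 without Top2a, Mki67, and Cenpf, and -0.30 without the largest 5% of cells, and -0.30 to -0.11 without 1 library. In carrying cells (main -0.06) it was -0.16 with at least 5 members, 0.0038 with at least 15, 0.17 with cells chosen by the other G2/M genes, -0.095 after thinning, -0.10 without the 3 genes, -0.15 without the largest cells, and -0.12 to 0.015 without 1 library. The value of 0.015 was that without library 7. At 1.5-fold, 25 members in place of 12 were past the limit in 5+6 (26.7% of all genes) and 1 in place of 0 in 7+8 (27.4%). At 2-fold, the counts for 5+6 and 7+8 were 16 and 0 with the narrower total. Without 1 library, the 2-fold counts ran from 9 to 14 and stayed at 0. The shares over all genes were not computed for these 2-fold alternatives. The cause of these changes was not tested. The choice of cells by the other G2/M genes and the call of other cells by all 49 members were added after the data were seen. No paired analysis was possible because the columns carry no replicate numbers. Depth limited the values of members in other cells, where the median cell had 2 member UMIs.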

Other observations

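Of 5061 genes with enough UMIs outside the lists, the 10 with the highest ratio of carrying over other cells in their lowest library were Ska1, Hist1h3c, Hist1h2ap, Hist1h1b, Spc24, Shcbp1, Kif15, Hist1h2ae, Brip1, and Lrr1, with lowest log2 ratios from 7.47 to 4.20. They include 4 histone genes and 2 kinetochore genes, Ska1 and Spc24. Spc24, which completes the Ndc80 complex at the kinetochore, had 152, 158, 89.8, and 92.6 CPM in carrying cells of libraries 5 to 8. The replication-dependent histone H1 gene Hist1h1b had 772, 845, 413, and 456 CPM. The histone H2A gene Hist1h2ap differed within both pairs, with 506 and 182 CPM in libraries 5 and 6 and 337 and 88.1 CPM in libraries 7 and 8, and reads of such gene copies can be split among near-identical genes.

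Cell cycle control genes were at least 2-fold higher in carrying than in other cells of every library for 13 of 40, compared with 2.96% of all genes. The counts were 20 of 24 for the G1/S genes and 27 of 34 for the other G2/M genes. Foxm1, encoding the activator of late cell cycle genes, had 12.5, 14.8, 10.1, and 12.4 CPM in carrying cells of libraries 5 to 8 and between 0.374 and 0.782 CPM in other cells. Mybl2, encoding B-MYB, had 24.7, 21.5, 27.8, and 26.7 CPM in carrying cells (log2 ratio 0.25). Both libraries 7 and 8 lay above both 5 and 6, as they did for 39.9% of all genes. The Cdk inhibitor gene Cdkn2c had 31.9 and 32.6 CPM in libraries 5 and 6 and 9.15 and 8.52 CPM in libraries 7 and 8 (-1.87), and Cdkn2d had 72.5, 69.9, 17.5, and 12.9 CPM (-2.20). Gadd45b, a stress-response gene, had 79.0, 72.8, 294, and 292 CPM (1.95).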
